A study of Mus musculus with 8 samples.

Results

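H3K27ac, acetylation of lysine 27 on histone H3, was compared by CUT&Tag between fibroblasts reprogrammed with Oct4 and wild-type Nanog (labelled Nanog+Oct4, here NanogWT) and fibroblasts reprogrammed with Oct4 and a NANOG fusion (labelled NanogN70+Oct4, here NanogBiD). Both arms were mouse embryonic fibroblasts collected at day 5. Per the study's methods they carried the OG2 Oct4-GFP reporter, were infected with retroviruses and were cultured in iCD3 medium, and the fusion joins the BRG1-interacting domain at the N-terminus of SS18 to NANOG. That NanogN70 is this fusion was taken from the study's text. The members are the 2 of 8 samples whose target is H3K27ac, 1 merged library for each arm, and they list 78050 of the 425777 peaks in the series. The other 6 libraries hold FLAG (the tag on NANOG), BRG1 and H3K4me1 in the same arms. There are no replicates, so values are given without a test between arms, and every interval is a 95% interval that covers counting error only.

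Acetylated H3 lysine 27 marks active promoters and active enhancers, whereas H3K4me1 lies over enhancers whether or not they are acetylated. The mark is written by the acetyltransferases EP300 and CREBBP and removed by histone deacetylases. BRG1 (SMARCA4) is an ATPase of the BAF complex, which moves nucleosomes and opens chromatin, and SS18 is a subunit of that complex. When fibroblasts are reprogrammed, enhancers of the fibroblast programme lose activity and those of the pluripotent programme gain it.

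The NanogWT list held 35452 peaks and the NanogBiD list 42598, of which 35441 and 42588 lay on chromosomes 1 to 19, X and Y. A peak's height is the number of tags at its summit and its score is -10 times log10 of the peak caller's p-value. Neither is scaled to sequencing depth, and the depth of the libraries is unknown, so a difference in list length or height between arms and a difference in depth cannot be told apart. The BRG1 list also was longer in NanogBiD (53748 against 30859 peaks), as was the FLAG list (74782 against 58940), whereas the H3K4me1 list was shorter (57156 against 72242). A region with no peak in one list is a region that did not reach the threshold of that library, not one without acetylation.

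A few loci show what the lists hold. The Mir302 cluster encodes microRNAs of the pluripotent state and was picked out by the study on cells of this experiment. On the mm10 build it lies at chr3:127545228-127545689 in an intron of Larp7. In NanogBiD an H3K27ac peak of 721 bp, 12 tags and score 139 covered chr3:127544582-127545302, with its summit 209 bp before the cluster, and NanogWT listed no H3K27ac peak there. At the same place the FLAG summit held 8 tags in NanogWT and 30 in NanogBiD, BRG1 had a peak in NanogBiD alone (18 tags), and H3K4me1 had none in either arm. Of the mature microRNAs, miR-302b-3p and miR-302d-3p share a seed (bases 2 to 8, in capitals in the lines from RefSeq), which is shown because it is the part that pairs with target transcripts. The window of 201 bases around the H3K27ac summit, chr3:127544919-127545119 on the plus strand, holds 1 match to the SOX motif, in capitals.
miR-302b-3p: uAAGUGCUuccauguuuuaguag
miR-302d-3p: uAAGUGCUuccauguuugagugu
Mir302 upstream window: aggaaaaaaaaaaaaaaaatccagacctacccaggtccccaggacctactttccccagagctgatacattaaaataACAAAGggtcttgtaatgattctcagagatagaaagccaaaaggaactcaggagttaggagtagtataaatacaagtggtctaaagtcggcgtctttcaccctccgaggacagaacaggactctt

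Away from promoters, 4 regions carry the contrasts described further on. Their windows of 201 bases are given on the plus strand of mm10, centred on the H3K27ac summit, with matches to the searched motifs in capitals. Those motifs were, on both strands, AP-1 (TGANTCA), OCT (ATGCAAA), SOX (ACAANG), TEAD (GGAATG), RUNX (TGTGGTT) and KLF (GGGTGTG). Of all 31325 distal regions, 18.47% held AP-1, 7.67% OCT, 38.5% SOX, 14.1% TEAD, 5.82% RUNX and 5.47% KLF in such a window.

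The first region lies in an intron of Fshr, the receptor for follicle-stimulating hormone, at chr17:89119075-89120838. Its H3K27ac peak was listed in NanogBiD alone, with 23 tags and score 385, and the window chr17:89120187-89120387 holds 1 AP-1 and 1 SOX match. FLAG held 23 tags in NanogWT and 49 in NanogBiD, BRG1 12 and 39, and H3K4me1 17 and 16. The enhancer mark H3K4me1 was thus listed at a like height in both arms, while the other targets were taller in NanogBiD.
Fshr intron: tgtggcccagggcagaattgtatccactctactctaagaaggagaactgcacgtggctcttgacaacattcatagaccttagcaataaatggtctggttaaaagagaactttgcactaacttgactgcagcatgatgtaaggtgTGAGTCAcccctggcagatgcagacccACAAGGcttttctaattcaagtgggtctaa

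The second region, chr19:60363039-60364928, is intergenic, and its nearest start is that of Prlhr, a prolactin-releasing hormone receptor, 104 kb away. Its H3K27ac peak too was listed in NanogBiD alone (22 tags, score 351), and the window chr19:60364036-60364236 holds 1 AP-1 and 1 SOX match. FLAG held 18 tags in NanogWT and 46 in NanogBiD, BRG1 7 and 24, and H3K4me1 15 and 17.
Prlhr region: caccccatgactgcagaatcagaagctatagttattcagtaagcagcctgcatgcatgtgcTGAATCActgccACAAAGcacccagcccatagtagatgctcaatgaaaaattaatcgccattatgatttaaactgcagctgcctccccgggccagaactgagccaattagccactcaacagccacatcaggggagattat

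The third region, chr10:39229895-39232300, was listed in both arms, with a summit of 16 tags in NanogWT and 38 in NanogBiD, a log2 ratio of 1.25. It is intergenic, with the start of Ccn6 67.5 kb away, and the window chr10:39231144-39231344 holds 1 OCT and 1 TEAD match. FLAG held 20 tags in NanogWT and 51 in NanogBiD, BRG1 9 and 34, and H3K4me1 15 and 20.
Shared region, chromosome 10: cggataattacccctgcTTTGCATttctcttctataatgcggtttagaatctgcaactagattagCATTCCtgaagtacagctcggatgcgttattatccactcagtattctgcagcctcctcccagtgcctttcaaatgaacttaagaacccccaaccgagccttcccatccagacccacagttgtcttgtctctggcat

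The last region runs the other way. Like those at Fshr and Prlhr, it was chosen after its values were seen. It lies in an intron of Nckap5 at chr1:126764855-126766792, and its H3K27ac peak was listed in NanogWT alone (21 tags, score 282). FLAG (11 tags), BRG1 (7) and H3K4me1 (14) also had peaks there in NanogWT and none in NanogBiD. For BRG1 this pattern was not the usual pattern of such regions. Of the 5819 distal regions of NanogWT alone, 15.02% had BRG1 in NanogWT alone and 59.37% in neither arm. The window chr1:126766244-126766444 holds 1 OCT, 1 RUNX and 1 SOX match.
Nckap5 intron: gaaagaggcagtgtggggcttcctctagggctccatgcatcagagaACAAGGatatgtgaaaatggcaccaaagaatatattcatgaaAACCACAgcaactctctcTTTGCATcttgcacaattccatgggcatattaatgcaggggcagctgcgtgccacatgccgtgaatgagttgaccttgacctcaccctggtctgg

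The extra H3K27ac peaks of NanogBiD lay mostly away from promoters. Promoters were taken as 2 kb either side of any annotated transcript start, and every other peak as distal. NanogWT listed 15464 promoter peaks and NanogBiD 16807, a ratio of 1.087 (1.063 to 1.111). It listed 19977 distal peaks against 25781, a ratio of 1.291 (1.267 to 1.315). Promoters thus held 43.6% of the NanogWT list and 39.5% of the NanogBiD list. Over single chromosomes the distal ratio ran from 1.178 on chromosome 7 to 1.426 on chromosome 3, and the promoter ratio from 1.051 to 1.132.

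Part of the excess remained among higher scores. Over peaks with a score of at least 100 the distal ratio was 1.228 (1.195 to 1.261) and the promoter ratio 1.067 (1.041 to 1.094). Lists of equal length fix the total and compare only how it divides. When NanogBiD was cut to its 35452 highest-scoring peaks, the length of the NanogWT list, the promoter ratio was 0.987 (0.965 to 1.01) and the distal ratio 1.01 (0.990 to 1.03). This cut removes NanogBiD peaks only, so NanogWT-only counts can rise but not fall, and NanogBiD-only counts can fall but not rise. At the 20000 highest-scoring peaks of each list, promoters held 11549 and 11573 peaks and distal sequence 8447 and 8423. At this length 57.8% of NanogWT peaks and 57.9% of NanogBiD peaks lay at promoters. The 7145 NanogBiD peaks left out by the cut had a median height of 11 tags, 21.55% of them lay at promoters, and 70.2% had no NanogWT peak over them.

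**Figure D1:**
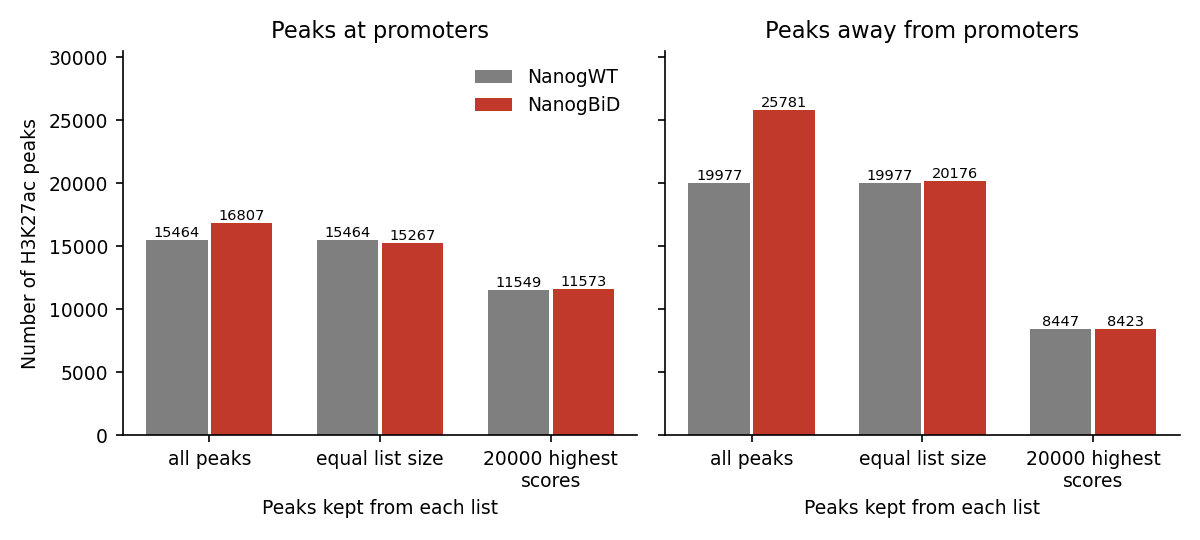
Number of H3K27ac peaks (vertical axis) at promoters and away from them in NanogWT (grey) and NanogBiD (red), for all peaks, at equal list size and for the 20000 highest scores of each list. Distal peaks numbered 19977 and 25781 over all peaks, 19977 and 20176 at equal size, and 8447 and 8423 at 20000.

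The arms differed in which regions were listed, more so in distal sequence than at promoters. Peaks of both lists were merged where they overlapped, which gave 49527 regions, 27914 (56.4%) with a peak in both arms, 7219 in NanogWT alone and 14394 in NanogBiD alone. At promoters 14032 of 18202 regions (77.1%) were shared. In distal sequence 13882 of 31325 regions (44.3%) were shared, 5819 (18.6%) were NanogWT only and 11624 (37.1%) NanogBiD only. With the lists at equal length, 13491 of 17240 promoter regions (78.25%) and 12432 of 27281 distal regions (45.6%) were shared. The remaining distal regions then divided into 7283 (26.7%) of NanogWT only and 7566 (27.7%) of NanogBiD only, numbers whose likeness follows from the equal lengths.

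Regions of 1 arm were low. Their median height was 12 tags in both arms, and 21.3% of NanogWT-only and 23.9% of NanogBiD-only regions reached 15 tags. Of shared regions 81.8% did so in the taller of their arms, which favours them over regions of 1 arm. The median height of shared regions was 18 tags in NanogWT and 20 in NanogBiD. Of the NanogWT-only regions 81.5% had a score under 100, as had 75.25% of the NanogBiD-only regions. Promoters made up 19.4% of NanogWT-only, 50.3% of shared and 19.2% of NanogBiD-only regions. A peak of the other arm lay within 5 kb of 23.0% of NanogWT-only and 15.7% of NanogBiD-only distal regions. Among distal regions, 58.4% of NanogWT-only, 51.9% of shared and 50.8% of NanogBiD-only summits were intronic, and their median distances to a protein-coding start were 29.9, 30.1 and 33.8 kb. The share of distal summits in masked repeats was 13.6% in NanogWT-only, 11.01% in shared and 12.2% in NanogBiD-only regions.

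The share of peaks found in both arms followed the rank of the peak. Among the 5000 highest-scoring peaks 100% of the NanogWT list and 99.8% of the NanogBiD list overlapped a peak of the other arm. At ranks 30001 to 35000 this was 46.5% for NanogWT and 41.2% for NanogBiD. In the last bin of each list it was 41.6% of 452 NanogWT peaks and 26.5% of 2597 NanogBiD peaks. Distal peaks of NanogBiD went from 97.8% to 24.4% from the first bin to the last, and its promoter peaks from 99.98% to 34.6%.

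**Figure D2:**
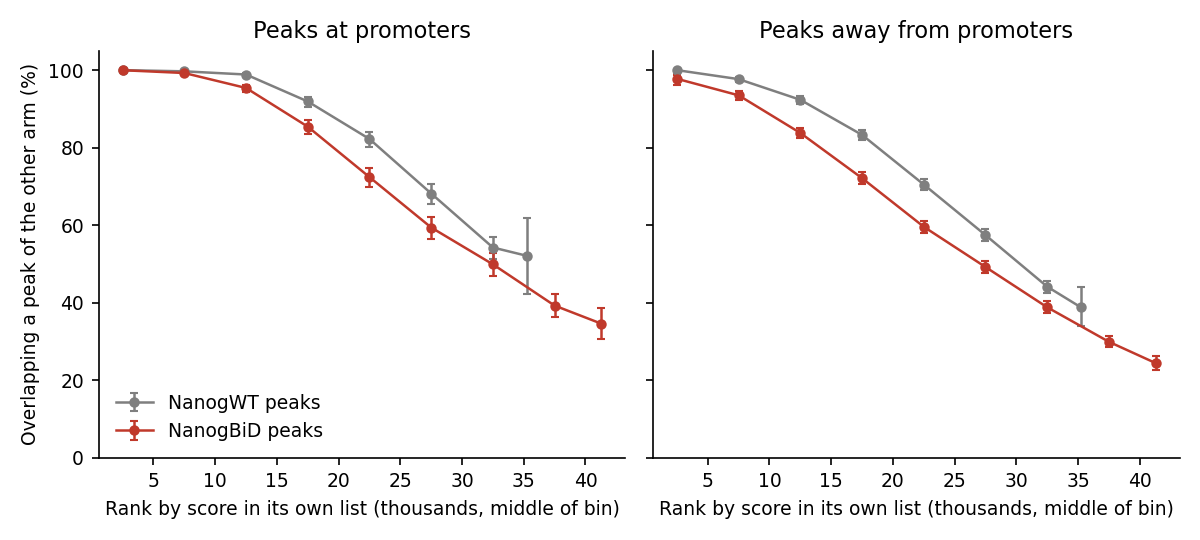
Percentage of H3K27ac peaks that overlap a peak of the other arm (vertical axis), by rank of score in their own list in bins of 5000 (horizontal axis, middle of the bin), at promoters and away from them, with Wilson intervals. Nearly every peak of the first bin is shared in each panel, and the last NanogBiD bin stands at 34.6% at promoters and 24.4% away from them.

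Peaks were wider at promoters than in distal sequence in both arms. The median width at promoters was 1561 bp in NanogWT and 1584 bp in NanogBiD, and in distal sequence 1038 bp and 965 bp. At equal list length the order of the arms in distal sequence turned, with 1038 bp in NanogWT and 1074 bp in NanogBiD, and promoters stood at 1561 and 1671 bp. Widths of at least 2 kb were found at 32.3% of NanogWT and 33.2% of NanogBiD promoter peaks, and at 14.6% and 10.8% of distal peaks. In all, peaks covered 53.5 Mb in NanogWT and 60.6 Mb in NanogBiD, or 54.9 Mb in NanogBiD at equal length.

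At a given height, distal peaks of NanogBiD were narrower from 10 tags up, and wider at 7 to 9 tags (574 bp, 563 to 585, against 529 bp, 522 to 535, in NanogWT). Distal peaks of 16 to 20 tags had a median width of 1385 bp (1362 to 1402) in NanogWT and 1224 bp (1208 to 1242) in NanogBiD. For 21 to 30 tags the medians were 1958 and 1712 bp. Promoter peaks of 21 to 30 tags had medians of 1800 bp (1775 to 1823) and 1822 bp (1798 to 1847). Those of 13 to 15 tags had 1079 bp (1052 to 1104) and 1034 bp (1016 to 1061). The NanogBiD promoter median was the lower one from 10 to 20 tags and the higher one below and above. In the 1195 shared distal regions with 1 peak in each arm and equal summit heights, the median log2 width ratio of NanogBiD over NanogWT was 0 (-0.03 to 0.03), with an SD of 0.49. In the 1298 such promoter regions it was 0.06 (0.04 to 0.07), and 60.6% were wider in NanogBiD.

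**Figure D3:**
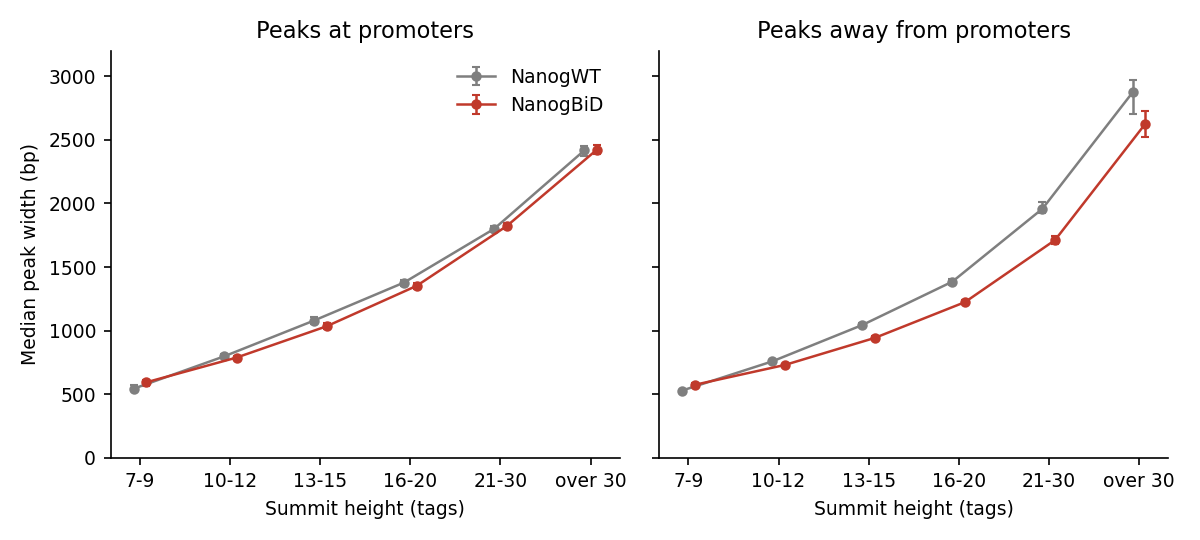
Median H3K27ac peak width (bp, vertical axis) by class of summit height (tags, horizontal axis) at promoters and away from them, for NanogWT (grey) and NanogBiD (red), with the 95% interval of the median. Width grows with height in both arms, and distal peaks of 16 to 20 tags lie at 1385 bp in NanogWT and 1224 bp in NanogBiD.

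The widest peaks were largely common to the arms. In NanogWT they lay at Fosl2, an AP-1 subunit (8280 bp, 8020 bp in NanogBiD), at Ptger4, a prostaglandin receptor (8039 bp, widest NanogBiD peak 5712 bp), and nearest to Nanos3 (7967 and 7949 bp). In NanogBiD they lay nearest to Prokr1 (8237 bp, 3345 bp in NanogWT), nearest to Kdm6b, an H3K27 demethylase (8226 and 7526 bp), and at Tlcd2 (8143 and 7961 bp).

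In shared regions the heights of the arms were close. The median log2 ratio of NanogBiD over NanogWT summit heights was 0.08 at promoters (SD 0.31) and 0.08 in distal sequence (SD 0.43). Of the 27914 shared regions, 408 (1.46%) were at least 2-fold higher in NanogBiD and 109 (0.39%) at least 2-fold lower. Most of these were distal, with 316 of 13882 higher (2.28%) and 87 lower (0.627%), against 92 (0.656%) and 22 (0.157%) of 14032 at promoters. Among the 16966 regions with at least 15 tags in both arms 22 were at least 2-fold higher and 11 at least 2-fold lower.

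Of those tall distal regions the highest ratios were at an intergenic region on chromosome 1 (chr1:177622810-177624167, 16 to 39 tags, log2 1.285), at the chromosome 10 region printed before, in an intron of Wwox, an oxidoreductase gene (17 to 40 tags), and on chromosome 12 (chr12:100071425-100074225, 16 to 36 tags). All 4 had FLAG, BRG1 and H3K4me1 peaks in both arms. The lowest ratios were over an exon of Nanog (47 to 20 tags, log2 -1.23), in an intron of Celsr1, a planar polarity cadherin (32 to 15 tags), near Iws1 on chromosome 18 (34 to 16 tags), and in an intron of Smyd3, a methyltransferase gene (36 to 17 tags).

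The Nanog values cannot be assigned to the gene alone. Within 3 kb of the gene all H3K27ac peaks lay over its exons and none at its promoter. By the nearest-start rule Nanog had 2 NanogWT-only and 3 shared distal regions, and 1 of each kind was such an exon region. The exon peaks held 39 and 47 tags in NanogWT and 20 in NanogBiD, where the first was not listed. FLAG held 24 and 30 tags there in NanogWT and 12 in NanogBiD, BRG1 16 and 26 against 9, and H3K4me1 18 and 23 against none. The retroviral Nanog has the same coding sequence, so tags of the vector and of the gene cannot be told apart. At Pou5f1 (Oct4) no H3K27ac peak was listed in either arm, while the other targets had peaks within 3 kb. H3K4me1 had one in each arm, of 46 tags, 4712 bp and score 54.9 in NanogWT and of 78 tags, 4542 bp and score 64.9 in NanogBiD, at different positions. BRG1 had one in NanogBiD alone (67 tags, 4330 bp, score 70.2). The tallest FLAG peak held 15 tags in NanogWT and 65 in NanogBiD. These too were different places, with summits at chr17:35500832 and chr17:35513299 on opposite sides of the gene. The Oct4-GFP reporter holds Oct4 regulatory DNA, and its copies and the gene cannot be told apart either.

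Regions of 1 arm with tall summits were few, wide and low in score. At 30 tags or more there were 46 NanogWT-only regions, with a median width of 3783 bp, of which 45.65% were over 4 kb, and 26 of the 46 scored under 100. Shared regions of the same height in NanogWT numbered 4687, with a median width of 2435 bp and 2.39% under a score of 100. The 50 NanogBiD-only regions of this height had a median width of 2724 bp, 32% over 4 kb and 28 of 50 under a score of 100, and of the 5363 shared ones in NanogBiD 2.16% were under it. Without a control sample the peak caller takes its background from the tags around the peak in the same library. The part of this in peaks missing from 1 arm was not tested.

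By gene, 12206 of 21938 protein-coding genes (55.6%) had a promoter peak in both arms, 942 (4.29%) in NanogBiD alone, 316 (1.44%) in NanogWT alone and 8474 in neither. At equal list length 688 genes (3.14%) had one in NanogBiD alone and 481 (2.19%) in NanogWT alone. Among genes peaked in both arms the median log2 height ratio was 0.07, with 52 genes at least 2-fold higher in NanogBiD and 5 at least 2-fold lower.

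Among the 10 tallest promoter peaks of NanogBiD alone were those at Zc3h4, a zinc-finger factor of transcription termination (54 tags, 5881 bp, score 410), Ntn5 (43 tags, 4778 bp, score 115), Tmem102 (43 tags, 5618 bp, score 134) and Gpx4, the lipid peroxide reductase (40 tags, 5566 bp, score 81.4). Rasl10a, Cyp11a1 (the enzyme that starts steroid synthesis), Sspo, Dqx1 and Fam89b were lower, with 31 to 33 tags. At 8 of the 10 some other target had a peak in NanogWT. At Gpx4, for example, FLAG held 23 tags in NanogWT and 25 in NanogBiD and BRG1 23 and 20, and at Zc3h4 BRG1 held 46 and 41. At Fam89b, by contrast, FLAG was listed in NanogBiD alone (14 tags) and BRG1 in NanogWT alone (16 tags). With promoters of 1 kb either side of a start, Tmem102, Rasl10a, Cyp11a1, Sspo and Dqx1 had no promoter peak in either arm. Narrower and higher-scoring examples, named after their values were seen, were Cyp11a1 (1614 bp, score 277), Mfsd13a (1908 bp, score 344) and Cd27, a TNF receptor of lymphocytes (1953 bp, score 291).

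The tallest of NanogWT alone were at Mlec, a carbohydrate-binding protein of the endoplasmic reticulum (50 tags, 6975 bp, score 133), Klf6, a zinc-finger factor (47 tags, 7910 bp, score 60.01), Zfp516 (46 tags), Bloc1s1 (42 tags), Spry4, an inhibitor of receptor tyrosine kinase signalling (42 tags, 4606 bp, score 304), and Cd80, a T-cell costimulator (41 tags, 2294 bp, score 536.5). Apc2, the neighbours Ddit3 and Mbd6, which share 1 peak of 39 tags and 5907 bp, and Fam83e (38 tags) completed the 10. At Klf6 BRG1 held 38 tags in NanogWT and 39 in NanogBiD and H3K4me1 25 and 17, while FLAG had a peak in NanogWT alone (52 tags). Cd80 had the highest score and the narrowest peak of the 10, and no FLAG or BRG1 peak was listed at it in either arm, while H3K4me1 had one in NanogWT alone (22 tags). At 8 of the 10 some other target had a peak in NanogBiD. With promoters of 1 kb Cd80, Apc2 and Fam83e had no promoter peak in either arm.

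Counting distal regions by their nearest protein-coding start within 100 kb, 5203 genes (23.7%) had at least 1 NanogBiD-only and 3208 (14.6%) at least 1 NanogWT-only region. More NanogBiD-only than NanogWT-only regions were assigned to 4154 genes (18.9%) and fewer to 1771 (8.07%), which became 2666 and 2637 genes at equal list length, where the lists hold like numbers of unshared peaks. The largest net excess of NanogBiD-only regions was at Cacna2d3, a calcium channel subunit, with 16 NanogBiD-only and 2 NanogWT-only regions (8 and 3 at equal length), and Pde4d, a cAMP phosphodiesterase, with 15 and 4 (7 and 4). Next came Tcf4, a basic helix-loop-helix factor (10 and 2, or 6 and 2 at equal length), Foxp1, a forkhead factor (10 and 2, or 5 and 3), Dlgap1 (9 and 1, or 8 and 1), Zfp521 (9 and 1, or 7 and 2) and Apbb2 (9 and 1, or 7 and 1). Lgalsl, Csnka2ip and Ccser1 had 8 and 0 each, and 7, 5 and 4 NanogBiD-only regions at equal length. The net number at Cacna2d3, Pde4d, Tcf4, Foxp1, Zfp521, Csnka2ip and Ccser1 thus was over 1.5 times smaller at equal length. Except for Csnka2ip, which had none, these genes had a promoter peak in both arms. A nearest start is a matter of position and does not say which gene a region acts on.

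Among the 10 genes with the largest net excess of NanogWT-only regions were Pde1a, a calmodulin-dependent phosphodiesterase, with 8 NanogWT-only and 0 NanogBiD-only regions, and Enox1 (11 and 5). Igf1r, the IGF1 receptor, had 7 and 2, and Svil, an actin-binding protein, 6 and 1. Tgfbr2, the type II TGF-beta receptor, had 5 and 0, as had Glrx3, Erich3, Hivep3 and Plcb1. At equal list length Tgfbr2 had 8 NanogWT-only and 0 NanogBiD-only regions and Plcb1 7 and 0. The direction of these rises is set by the cut, which removes NanogBiD peaks only. The promoters of these genes had H3K27ac peaks in both arms, apart from Erich3, whose promoter peak was in NanogWT alone (18 tags, score 257).

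Of 33 pluripotency genes, 9 had a promoter peak in both arms, 5 in NanogBiD alone, 0 in NanogWT alone and 19 in neither, beside 4.29% in NanogBiD alone and 1.44% in NanogWT alone over all protein-coding genes. Among the 5 were Tdgf1, a NODAL co-receptor (20 tags, score 120), Sall4, a zinc-finger factor that the study singled out (14 tags, score 112), Dppa3, a maternal and germ cell factor (11 tags, score 58.3), and Nr5a2, a nuclear receptor (9 tags, score 53.1). All 5 summits were of 20 tags or fewer. At equal list length Sall4 and Tdgf1 stayed in the list and Dppa3 and Nr5a2 dropped out, and with promoters of 1 kb Dppa3 had no promoter peak. At the 20000 highest-scoring peaks Sall4 and Tdgf1 had none either.

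Among the 9 shared pluripotency promoters Klf4 held 33 tags in NanogWT and 37 in NanogBiD, Klf2 29 and 34, and Tbx3 30 and 32. Klf5 held 24 in each arm and Gdf3, a NODAL-related ligand, 26 and 20. The median log2 ratio over the 9 was 0. No promoter peak of H3K27ac was listed in either arm at Pou5f1, Nanog, Sox2, Esrrb, Zfp42, Dppa5a or Lin28a, so the promoters of these defining genes of pluripotent cells were unmarked on these lists. Esrrb, a nuclear receptor, had 4 NanogBiD-only and 1 NanogWT-only distal regions. The whole pluripotency list had 11 and 6, beside 8677 and 4504 over all protein-coding genes. At equal list length it had 8 and 6, beside 5567 and 5688. Over the 14 genes that the study named, which include the 4 Mir302 genes under 1 peak, 5 had a NanogBiD-only promoter peak and 0 a NanogWT-only one; the study chose these genes on cells of this experiment, so their direction is no independent evidence.

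Of 24 epithelial genes, 7 had a promoter peak in both arms, 4 in NanogBiD alone and 0 in NanogWT alone, beside 55.6%, 4.29% and 1.44% over all protein-coding genes. The 4 were Cldn3, a tight junction protein (22 tags, score 232), Rab25, a GTPase of epithelial trafficking (21 tags, score 128), Dsp, desmoplakin (11 tags, score 105), and Krt8, a keratin (11 tags, score 67.5), and all 4 were also listed in NanogBiD alone at equal length. Krt8 had no promoter peak at a score of at least 100, and neither Krt8 nor Dsp had one at the 20000 highest-scoring peaks. Among the shared ones Cldn6 held 21 tags in NanogWT and 29 in NanogBiD, and Grhl2, an epithelial transcription factor, 14 and 22. Cdh1 and Epcam, 2 defining epithelial genes, had no promoter peak in either arm.

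The promoters of the fibroblast programme were marked in both arms. Of 35 fibroblast and mesenchymal genes 33 had a promoter peak in both (55.6% over all genes), and Loxl2 and Prrx1 had none. Vim, the intermediate filament vimentin, held 49 tags in NanogWT and 50 in NanogBiD, and Acta2, smooth muscle actin, 49 and 43. Thy1, a surface protein used to mark fibroblasts, stood at 44 and 26 tags (log2 -0.76), and Twist2 at 23 and 15. In the other direction Twist1 stood at 24 and 37 tags (log2 0.62) and Postn, a matrix protein, at 16 and 27 (log2 0.75). The median log2 ratio of the 33 was 0.10, against 0.07 over all genes. Of the 33, 20 were higher and 11 lower in NanogBiD, beside 6990 and 4097 of the 12206 genes peaked in both arms. The list had 27 NanogWT-only and 39 NanogBiD-only distal regions, beside 4504 and 8677 over all protein-coding genes. At equal list length it had 38 and 24, beside 5688 and 5567. At equal list length Snai1 was listed in NanogWT alone. The labelled cell type, embryonic fibroblast, was thus borne by its own markers in both libraries.

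Of the AP-1, TEAD and RUNX factors, which bind fibroblast enhancers, 18 of 21 had a promoter peak in both arms. Their median log2 ratio was -0.07, with 10 lower and 6 higher in NanogBiD. Over all 12206 protein-coding genes peaked in both arms it was 0.07, with 4097 lower and 6990 higher. For this list and the next 3, the shares over all protein-coding genes were 55.6% in both arms, 4.29% in NanogBiD alone and 1.44% in NanogWT alone. Fos held 41 tags in NanogWT and 55 in NanogBiD, and Maff 48 and 36. Batf3 and Runx3 (13 tags each) were listed in NanogBiD alone, and neither was at equal length. Fosl2 was then listed in NanogWT alone, as the cut dropped its NanogBiD peak (score 54.4) and did not apply to its NanogWT peak (score 58.75). Of 36 SOX, OCT and KLF factors 22 were shared and Klf6 was in NanogWT alone, and Sox1 stood at 20 and 29 tags. Among 18 genes that write, remove or read H3K27 marks, 15 were shared, Ezh1 was in NanogWT alone, and Hdac8 and Kat2a in NanogBiD alone. Of 28 BAF subunit genes 25 were shared, with a median log2 ratio of -0.04, and Dpf1 was in NanogBiD alone. Hdac8 and Dpf1 were not listed at equal length.

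The 28 housekeeping genes all had a promoter peak in both arms. Their median log2 ratio was 0.00, 14 were higher and 14 lower in NanogBiD, and their summed heights were 1025 tags in NanogWT and 1024 in NanogBiD. One of them, the elongation factor Eef1a1, held 52 tags in NanogWT and 24 in NanogBiD (log2 -1.12). No other gene of the list differed by 2-fold or more.

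Markers of other cell types were listed to differing extents, and their counts stand beside 55.6% of all protein-coding genes peaked in both arms, 4.29% in NanogBiD alone and 1.44% in NanogWT alone. Of 34 germ layer regulators 3 were shared, Gata2, Mesp1 and Tbx5 were in NanogWT alone and 3, among them Eomes and Pax6, in NanogBiD alone. Of 10 endothelial markers 4 were shared, and Cdh5, Cldn5 and Kdr were in NanogBiD alone, with 11, 11 and 10 tags. Pecam1, Emcn and Tie1 had no promoter peak in either arm. Of the shared ones Erg held 21 tags in NanogWT and 13 in NanogBiD and Vwf 15 and 12. Esam went the other way with 11 and 18, as did Tek with 16 and 20. The summed heights were 63 tags in NanogWT and 95 in NanogBiD over the list. Of 11 blood and macrophage markers 2 were shared and Ptprc, the leukocyte antigen CD45, was in NanogBiD alone (24 tags, score 253), with summed heights of 56 and 77 tags. Of 10 neural markers 6 were shared and Tubb3 was in NanogBiD alone, and of 15 markers of other differentiated cells 3 were shared and Myog was in NanogBiD alone. For comparison, the summed heights were 211 and 285 tags over the pluripotency list, and 131 and 209 over the epithelial list. An unlisted promoter enters these sums as 0, so the sums largely restate which promoters were listed. With promoters of 1 kb Cdh5 and Myog had no promoter peak, and at equal list length Myog had none and Nefl, a neural marker, was listed in NanogWT alone. At a score of at least 100 Cdh5, Kdr, Eomes, Gata2 and Mesp1 had no promoter peak. At the 20000 highest-scoring peaks Cldn5 had none either. The part of other cell types, or of depth, in the NanogBiD-only promoters was not tested.

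The other targets set the distal classes apart. Of the 11624 distal regions listed in NanogBiD alone, 69.1% overlapped a BRG1 peak of NanogBiD and 17.7% one of NanogWT. FLAG peaks covered 81.3% of them in NanogBiD and 57.1% in NanogWT. H3K4me1 covered 56.1% and 51.95%, although its NanogBiD list was the shorter. At the 2770 promoter regions of NanogBiD alone BRG1 covered 57.2% in NanogBiD and 24.2% in NanogWT. With every list cut to its 20000 highest-scoring peaks, it covered 39.5% and 34.0% of 1151 such promoter regions, so that gap was far smaller.

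The 5819 distal regions of NanogWT alone differed in pattern. BRG1 covered 28.05% of them in NanogWT and 25.6% in NanogBiD, FLAG 58.9% and 36.5%, and H3K4me1 65.2% and 34.6%. Of the 13882 shared distal regions BRG1 covered 68.95% in NanogWT and 82.8% in NanogBiD, FLAG 87.4% and 87.6%, and H3K4me1 83.3% and 74.5%. With the H3K27ac lists at equal length, BRG1 of NanogWT and NanogBiD covered 20.6% and 78.0% of 7566 NanogBiD-only regions, and 31.8% and 31.1% of 7283 NanogWT-only regions. With every list at its 20000 highest-scoring peaks, the BRG1 lists were also of equal length. Then BRG1 covered 27.5% and 66.5% of 3208 NanogBiD-only regions and 44.3% and 18.2% of 3230 NanogWT-only regions, so the order of the arms was opposite in these classes. The order was opposite for the other targets too at this length, with FLAG at 47.4% and 68.7% of the NanogBiD-only and 44.7% and 16.6% of the NanogWT-only regions. H3K4me1 stood at 29.9% and 38.9% of the former and 35.7% and 23.3% of the latter.

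**Figure D4:**
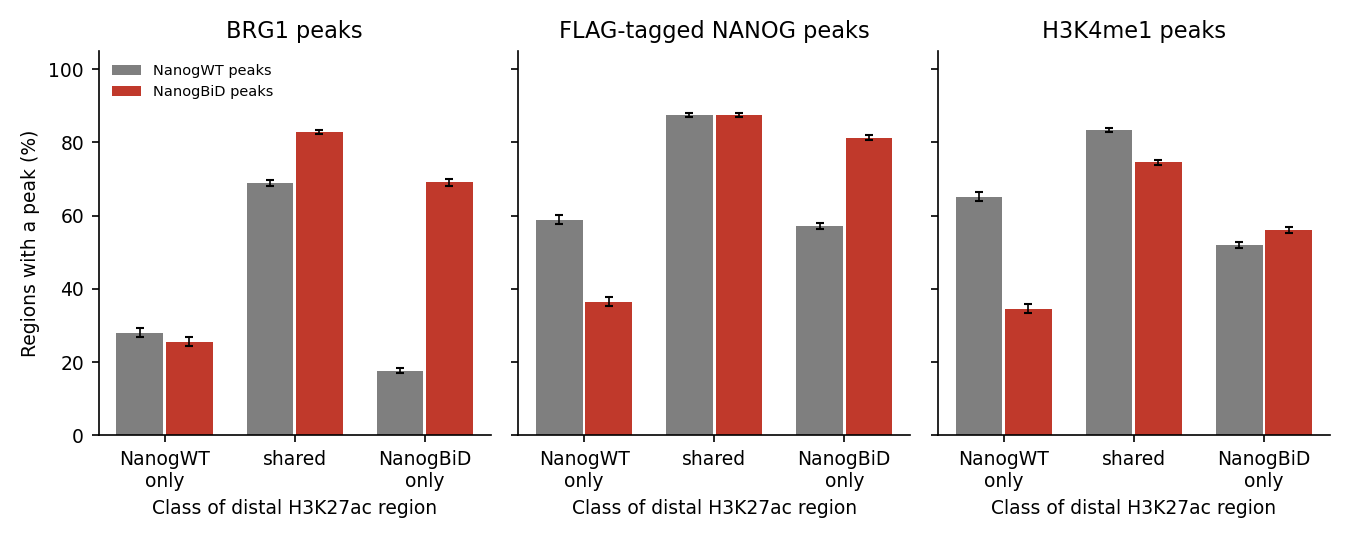
Percentage of distal H3K27ac regions (vertical axis) that overlap a BRG1, FLAG or H3K4me1 peak of NanogWT (grey) or NanogBiD (red), by class of region, with Wilson intervals. In NanogBiD-only regions BRG1 stands at 17.7% in NanogWT and 69.1% in NanogBiD, and in NanogWT-only regions at 28.05% and 25.6%.

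Single regions show the same range. The highest-scoring NanogBiD-only distal region, chosen after its values were seen, lies in an intron of Gm11508 at chr11:88014576-88016356, 28.1 kb from Dynll2 (25 tags, score 427). FLAG (44 tags), BRG1 (39) and H3K4me1 (18) had peaks there in NanogBiD and none in NanogWT, and 48.76% of its summit window is masked repeat. In the introns of Adamtsl1 (23 tags, score 349) and Sorcs1 (22 tags, score 368), BRG1 stood at no peak against 30 tags and at 9 against 29. The tallest NanogBiD-only region was of another kind. It lies in an intron of Cubn at chr2:13409450-13414580 (50 tags, 5131 bp, score 98.9), where FLAG held 51 tags in NanogWT and 65 in NanogBiD, BRG1 33 and 52, and H3K4me1 24 in each. Introns of Mad1l1 (42 tags), Iffo2 (41) and Hrh1 (40) followed, with FLAG and BRG1 listed in both arms.

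In NanogWT alone the tallest distal regions were in introns of St3gal3 (42 tags, 7059 bp, score 72.3) and Cpped1 (38 tags), over the Nanog exon, and at chr7:111295072-111299505 (39 tags). The highest-scoring ones, again chosen after their values were seen, were at chr1:121619475-121621723 (21 tags, score 316) and chr1:142694806-142697165 (17 tags, score 291), before the Nckap5 intron. BRG1 was listed in both arms at St3gal3 (21 tags in NanogWT and 23 in NanogBiD), at the chromosome 7 region (25 and 12) and at chr1:142694806-142697165 (12 and 11), as was FLAG. In introns of Trpm3, a cation channel gene (21 tags, score 277), and Dnah12, a dynein gene (19 tags, score 270), BRG1 was listed in NanogWT (13 and 15 tags) and not in NanogBiD.

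Motif matches at distal summits differed between NanogWT-only and NanogBiD-only regions for AP-1, OCT and SOX, with intervals that did not overlap. AP-1, the motif of the FOS and JUN families, lay in 14.2% of NanogWT-only windows (interval 13.3 to 15.1). It lay in 21.3% of shared windows (20.7 to 22.03) and in 17.2% of NanogBiD-only windows (16.5 to 17.9), with 5.90% to 6.22% in windows 1 kb away. OCT, the octamer bound by POU factors such as OCT4, lay in 4.98% of NanogWT-only windows (interval 4.45 to 5.57). Shared windows held it at 8.003% (7.56 to 8.47) and NanogBiD-only windows at 8.62% (8.12 to 9.14), with 3.99% to 4.48% away. In NanogWT-only regions OCT thus was near its level 1 kb away, and in the other classes above it. SOX, the motif of factors such as SOX2, lay in 35.5% of NanogWT-only windows (interval 34.3 to 36.8). It lay in 38.3% of shared (37.5 to 39.1) and 40.3% of NanogBiD-only windows (39.4 to 41.2), with 36.4% to 37.0% away. In the order NanogWT only, shared and NanogBiD only, TEAD lay in 14.6%, 14.2% and 13.9%, with 10.8% to 11.1% away. RUNX was found in 5.53%, 5.67% and 6.13%, and KLF in 6.22%, 5.32% and 5.27%. GC content of the windows was 48.2% in NanogWT-only, 48.4% in shared and 46.55% in NanogBiD-only regions, and its part in the motif shares was not tested. A match to these letters is not a bound site.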

How the data were processed

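H3K27ac CUT&Tag peak and summit lists of 2 arms, and those of 3 other targets, were used. Per the study's methods and the submitters' processing notes, the authors trimmed reads with Trim Galore (0.6.4), aligned them to mm10 with Bowtie2 (2.4.5), removed repetitive, mitochondrial and poorly mapped reads with SAMtools (1.16.1), merged replicates (the study gives a minimum number of repeats for its experiments in general, but not the number behind each list) and called peaks with MACS (1.4.2) with no control named. The deposited peak score is -10 times log10 of the caller's p-value. The deposited summit signal is a tag pileup, not scaled to depth. Labels and methods differ in the kit and the cell number.

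Here, peaks on chromosomes 1 to 19, X and Y were set against GENCODE M21 starts (GRCm38, the files' build) with Python 3.11.15, NumPy 2.4.6, pandas 2.3.3 and SciPy 1.17.1. Sequence came from GRCm38 with pysam 0.24.0 and samtools 1.23.1, and figures from matplotlib 3.10.9. Peaks overlapping by at least 1 bp were merged into regions. For regions in both arms, motif windows were centred on the NanogBiD summit. Promoters, equal list length and the 100 kb rule are given with the results. Shares carry Wilson intervals, ratios exact binomial intervals and medians intervals from order statistics, all at 95%. With 1 library per group no test was run. The steps were tested on simulated data.

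Samples were grouped by GEO's labels. Members and the 14 gene lists (299 genes, all found) were chosen with earlier results of these data known. Genes were named by rule: list genes with a promoter peak in 1 arm, the 10 tallest promoters of each arm alone, the 10 genes with the largest net number of distal regions either way, the 4 tallest distal regions of each arm alone, the 4 highest and 4 lowest ratios among shared distal regions of at least 15 tags, and the 3 widest peaks of each arm. Other list members are examples. The highest-scoring regions, and the alternatives with peaks of at most 4 kb and without the Nanog exons, were added after the data were seen. A few genes that the rule names are not reported here.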

Additional observations from a re-analysis of the deposited data

How the results depend on the processing

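No paired analysis was possible because each arm has 1 merged library. Of 76 recomputed values of 12 results, 45 stayed within their counting interval or limit, 27 moved and 4 reversed, and no cause was tested beyond the shorter lists themselves. Some of the 45 could hardly move. Taking all sequences added only 11 NanogWT and 10 NanogBiD peaks, and leaving out the Nanog exons touched 1 gene. Cutting NanogBiD to the length of the NanogWT list turned the promoter ratio to 0.987 and the distal width difference (-73 bp) to 36 bp, and moved the distal ratio to 1.01, distal sharing to 45.57%, the log2 height ratio to 0.11, NanogWT-only promoters to 481 genes, and the BRG1 difference between arms (51.35 points at NanogBiD-only and -2.44 at NanogWT-only distal regions) to 57.39 and -0.70 points. At the 20000 highest-scoring peaks the distal ratio turned to 0.997, the promoter ratio was 1.002, the promoter share of NanogBiD-only regions 26.41%, promoters by gene 627 (NanogBiD only) and 519 (NanogWT only), the BRG1 differences 39.06 and -26.07 points and the AP-1 difference 4.66 points (3.002 in all). At a score of at least 100 the BRG1 difference at NanogWT-only regions turned to 1.15 points, and the other values were 1.228 (distal ratio), 24.78% (promoter share of NanogBiD-only regions), 44.92% (distal sharing), -122 bp (distal width), 0.064 (log2 height) and 59.68 points (BRG1 at NanogBiD-only regions). Promoters of 1 kb gave a share of 14.64%, and protein-coding starts 13.13% with 45.16% distal sharing. Overlap of at least 50% gave 37.07% distal sharing, and peaks of at most 4 kb 43.23% with 502 NanogWT-only genes. Heights taken by score gave a log2 ratio of 0.034, and a motif window of 50 bp either side an OCT difference of 2.26 points (3.64 in all). Of the 14 NanogWT-only and 37 NanogBiD-only named promoters, 8 and 21 kept their class at a score of 100, and 8 and 14 at 20000 peaks. With 1 kb promoters 11 and 29 kept it, and with peaks of at most 4 kb 7 and 31. At equal length 14 and 30 kept it, but that cut removes NanogBiD peaks only, so the 14 could not change class.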
